A study of Homo sapiens with 2 samples.

Results

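The NeuroD1 peaks of chromosomes 6 and 12 in IMR-32 cells are described here. All peaks of the deposited list that lay on these chromosomes were taken, which gave 392 peaks on chromosome 6 and 481 on chromosome 12, or 873 of 6183 peaks. IMR-32 is a wild-type human neuroblastoma cell line with amplified MYCN. The series held 1 ChIP library, made with an antibody labelled as NeuroD1, and 1 input library with no antibody. The supplementary protocol for ChIP names H3K27Ac as the antibody target instead, and the list is treated here as labelled. There was no replicate and 1 cell line, so no test between conditions was possible, and no p-value is given. The sequencing depth is unknown.

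NeuroD1 is a basic helix-loop-helix transcription factor that pairs with E proteins and binds short DNA motifs called E-boxes, such as CAGATG and CAGCTG. It drives neuronal differentiation in the developing nervous system and is expressed in neuroblastoma, a tumor of sympathetic precursor cells. In ChIP-seq, DNA bound by the protein is pulled down and sequenced, and a peak is a site where reads exceed a local background. The background is often taken from input chromatin around the site, so a region that gives more input reads needs more ChIP reads to form a peak.

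Of the 10 strongest peaks of each chromosome, 5 lay within 1 kb of a gene start. Stretches of up to 50 bases on each side of the summit, the highest point of the peak, are shown for the 6 strongest summits inside a promoter window, none of which holds CAGATG or CAGCTG. They are RefSeq sequences of GRCh38.p14, written 5′ to 3′ on the strand of the gene and ending before its start.
CAPS2, chr12:75330329-75330429, minus strand: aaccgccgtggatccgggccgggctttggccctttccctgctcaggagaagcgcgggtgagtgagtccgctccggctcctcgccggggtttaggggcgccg
GCLC, chr6:53545102-53545182, minus strand: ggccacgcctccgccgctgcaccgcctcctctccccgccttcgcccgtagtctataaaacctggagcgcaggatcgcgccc
EEF1A1, chr6:73521167-73521267, minus strand: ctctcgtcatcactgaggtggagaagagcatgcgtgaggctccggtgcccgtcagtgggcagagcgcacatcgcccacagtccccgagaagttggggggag
PXMP2, chr12:132687441-132687541, plus strand: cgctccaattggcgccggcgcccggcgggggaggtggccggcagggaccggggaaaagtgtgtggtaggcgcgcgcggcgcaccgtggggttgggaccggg
CITED2, chr6:139374654-139374754, minus strand: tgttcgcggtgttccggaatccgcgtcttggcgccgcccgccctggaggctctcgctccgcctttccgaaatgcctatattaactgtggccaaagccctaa
BAZ2A, chr12:56630344-56630444, minus strand: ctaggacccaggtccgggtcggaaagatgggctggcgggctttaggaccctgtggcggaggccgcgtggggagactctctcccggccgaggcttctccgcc

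As a contrast, 3 weaker peaks are shown that were chosen because one of these motifs lay close to the summit. Of the 270 summits of chromosomes 6 and 12 inside a promoter, 40 had one within 50 bp. Whether this share changed with the strength of the peak was not tested. The capitals mark CAGCTG or CATCTG, the reverse complement of CAGATG. The distance from the summit to the centre of the motif was 0.5 bp for CD9, 11.5 bp for FGD4 and 33.5 bp for SOX4.
CD9, chr12:6199733-6199833, plus strand: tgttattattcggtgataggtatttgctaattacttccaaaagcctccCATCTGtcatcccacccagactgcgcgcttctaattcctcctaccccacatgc
FGD4, chr12:32502074-32502162, plus strand: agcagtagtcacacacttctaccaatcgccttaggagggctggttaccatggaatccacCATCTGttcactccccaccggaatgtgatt
SOX4, chr6:21593607-21593707, plus strand: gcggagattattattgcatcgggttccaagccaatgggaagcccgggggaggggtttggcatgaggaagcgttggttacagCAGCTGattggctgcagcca

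The peaks of chromosomes 6 and 12 were dense relative to genes when set against chromosomes 3, 4, 5, 10 and 11. Chromosome 6 had 37.4 peaks per 100 protein-coding genes (95% Poisson interval 33.8 to 41.3, 1049 genes). Chromosome 12 had 47.0 (42.9 to 51.4, 1024 genes). Chromosomes 3, 4, 5, 10 and 11 together had 26.6 (25.2 to 28.1, 4775 genes), and singly ran from 24.1 on chromosome 11 to 30.9 on chromosome 10. Over all chromosomes the value was 31.0, above that of the comparison. The ratio to these 5 comparison chromosomes was 1.40 (1.25 to 1.57) for chromosome 6 and 1.76 (1.58 to 1.96) for chromosome 12. The chromosomes were chosen by these peaks per gene, by fold enrichment and by background, so all 3 measures are given as a description. All intervals cover counting error or the spread between peaks of the same library only.

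Fold enrichment, the ratio of ChIP reads to background at the summit with 1 added to each, was not higher there. Its median was 6.76 on chromosome 6, with quartiles of 5.75 and 8.43 and a range from 3.11 to 26.9. On chromosome 12 it was 6.75, with quartiles of 5.59 and 8.55 and a range from 3.14 to 35.0. The 95% intervals of these medians, 6.51 to 7.09 and 6.51 to 6.87, overlapped that of the comparison peaks, which had a median of 6.79 (6.75 to 7.19).

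**Figure D1:**
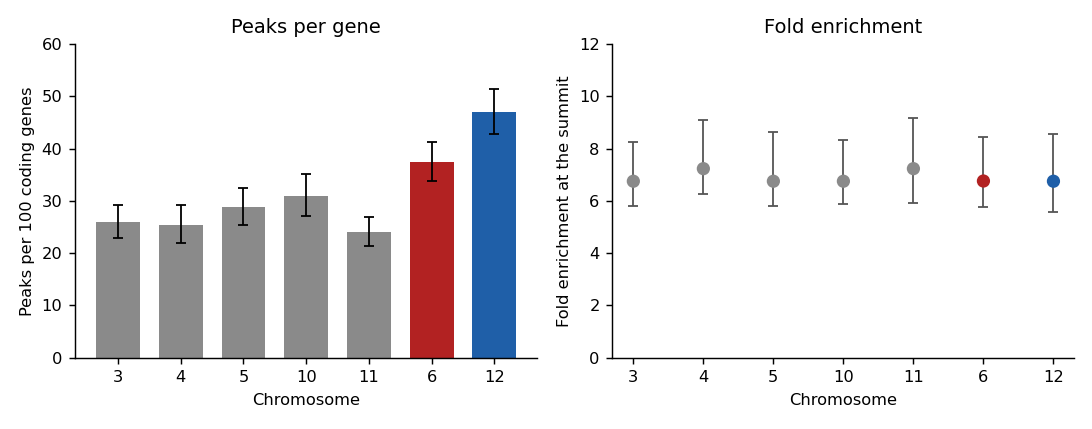
The left panel plots peaks per 100 protein-coding genes for each chromosome as bars, with 95% Poisson intervals. The right panel plots the median fold enrichment as points with bars from the lower to the upper quartile. Chromosomes 6 (red) and 12 (blue) had the highest bars, 37.4 and 47.0, and medians of 6.76 and 6.75 like those of the 5 comparison chromosomes (gray).

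The background was higher at these peaks than at those of the comparison chromosomes. It was solved for each peak from the fold enrichment and the p-value. It is the level, in control reads, that the peak caller set against the ChIP reads at the summit. Its mean was 1.73 ± 0.0331 reads (SE over 392 peaks) on chromosome 6 and 1.81 ± 0.0298 (SE over 481 peaks) on chromosome 12. The 1272 comparison peaks had a mean of 1.26 ± 0.0124, and the single comparison chromosomes ranged from 1.23 to 1.28. The median was 1.53 on chromosome 6 and 1.61 on chromosome 12. In the comparison it was 1.04, which is the lowest background in the whole list and was shared by 2027 of its 6183 peaks. This level is read as a floor, so a weaker local control signal at such peaks would not be seen. Over all peaks of the list the median was 1.31, and the mean of 2.53 was above those of chromosomes 6 and 12, with a highest value of 98.0.

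Almost every peak of chromosomes 6 and 12 lay above that lowest level. On chromosome 6, 97.4% of the peaks did, and on chromosome 12, 98.3%. The share was 44.6% in the comparison and 67.2% over all peaks. Seen the other way, 10 peaks of chromosome 6 (2.55%, exact interval 1.23 to 4.64) and 8 of chromosome 12 (1.66%, 0.721 to 3.25) were at the lowest level, against 705 of 1272 comparison peaks (55.4%, 52.6 to 58.2). Among the comparison chromosomes the share at the lowest level was smallest on chromosome 5, with 50.8%, and largest on chromosome 4, with 61.7%.

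**Figure D2:**
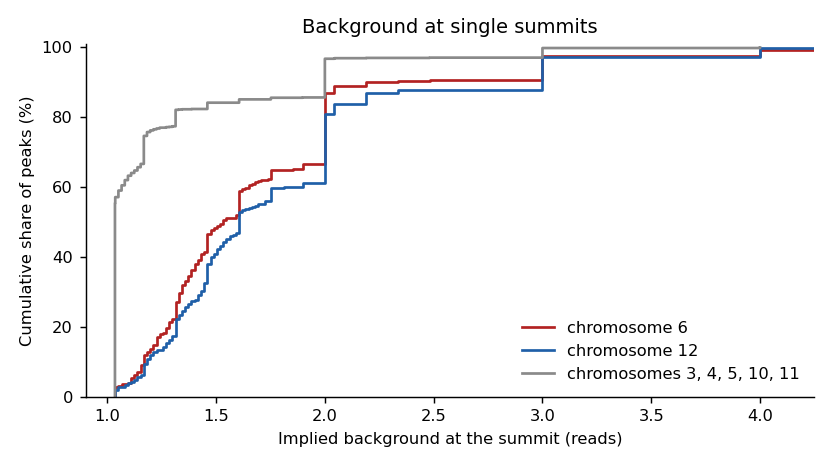
Cumulative share of peaks (%) against the implied background at the summit (reads) for chromosome 6, chromosome 12 and the 5 comparison chromosomes. The gray curve starts at 55.4% at the lowest level of 1.04, whereas the red and blue curves start near the bottom and lie to its right, with the few peaks of highest background beyond the edge of the plot.

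Each window that the caller can use set the background of a larger share of peaks than in the comparison. Only the window that set the background is seen at a peak, so the reads in its other windows are unknown. Together the shares make up the peaks above the lowest level. The backgrounds fell on whole numbers, on multiples of 0.146 or on multiples of 0.0146, which are the steps of control reads counted at the summit, in 1 kb and in 10 kb around it. This reading was inferred from the values. The control reads at the summit set the background of 29.6% of chromosome 6 peaks and 31.6% of chromosome 12 peaks, against 14% of comparison peaks. The 1 kb window set it for 27.6% and 31.8%, against 16.4%. The 10 kb window set it for 40.3% and 34.9%, against 14.2%. On chromosome 6, 80 summits were covered by 2 control reads, 26 by 3 and 10 by 4 or more, whereas chromosome 12 had 94, 45 and 13 such summits. The comparison chromosomes, with more peaks, had 141, 35 and 2.

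**Figure D3:**
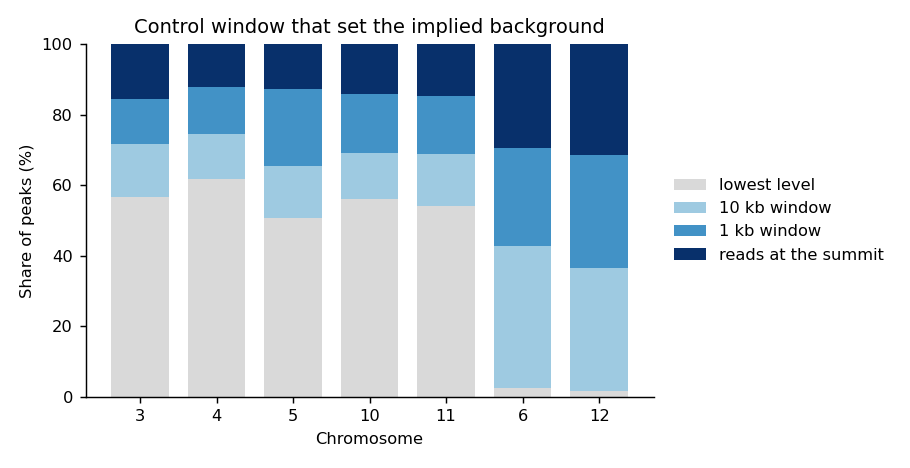
Stacked bars give the share of peaks (%) whose background was at the lowest level or was set by the 10 kb window, the 1 kb window or the control reads at the summit. The gray part is 2.55% of the bar of chromosome 6 and 1.66% of that of chromosome 12, and over 50% in each comparison chromosome.

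Where the 10 kb window set the background, the control reads in it could be counted. The median was 92 reads on chromosome 6, from 71 to 127 (158 peaks), and 95 on chromosome 12, from 71 to 124 (168 peaks). In the comparison it was 75, from 71 to 95 (181 peaks). Only peaks with at least 71 such reads can enter this count, since the lowest level stands for 70.9 reads in 10 kb. The highest counts of the comparison chromosomes were thus close to the medians of chromosomes 6 and 12.

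The raised background ran along the whole of each chromosome. In bins of 10 Mb with at least 5 peaks, the mean background was between 1.41 and 1.88 in the 17 bins of chromosome 6, and between 1.38 and 2.02 in the 14 bins of chromosome 12. The 78 comparison bins ranged from 1.04 to 1.61. The mean was above the highest comparison bin in 14 of 17 bins of chromosome 6 and in 13 of 14 of chromosome 12. The lowest bin of chromosome 6 was that from 50 to 60 Mb, with 16 peaks, and the lowest of chromosome 12 that from 80 to 90 Mb, with 10 peaks. No bin of chromosome 6 had more than 8% of its peaks at the lowest level, and none of chromosome 12 more than 20%. In the comparison the smallest such share was 23.1%. There were 11 bins of chromosome 6 and 9 of chromosome 12 with no peak at the lowest level, and no such bin in the comparison.

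**Figure D4:**
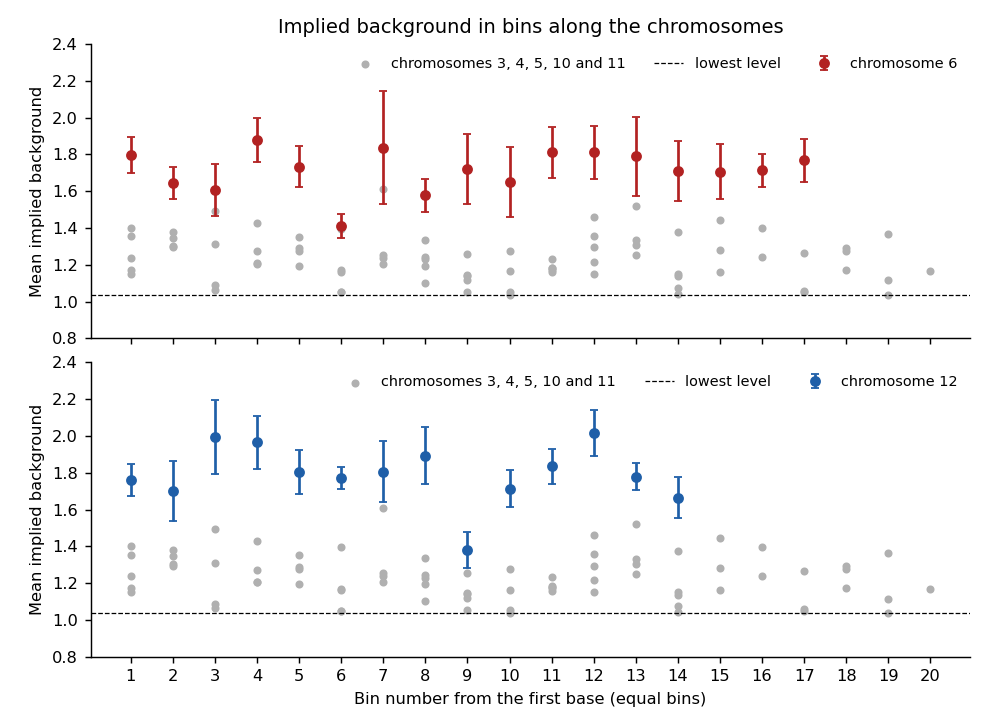
Mean implied background (control reads at the summit) with its SE over peaks in successive bins of 10 Mb, for chromosome 6 (top) and chromosome 12 (bottom), with the bins of the 5 comparison chromosomes in gray and the lowest level as a dashed line. The bins of chromosome 6 sit between 1.41 and 1.88 and those of chromosome 12 between 1.38 and 2.02.

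Peak density ranged widely along the chromosomes, as it did over the comparison bins. On chromosome 6 it ran from 17.7 peaks per 100 genes between 30 and 40 Mb, with 220 genes, to 95.2 between 90 and 100 Mb, with 21 genes. The bin from 20 to 30 Mb, with 138 genes, had 18.1. These neighbouring bins hold the clustered histone genes and the HLA genes of the major histocompatibility complex. Together they had 17.9 peaks per 100 genes (13.8 to 22.8), and the rest of chromosome 6 had 47.5 (42.5 to 52.9), near the 47.0 of chromosome 12. This split was chosen after the values were seen, and no bins were left out of chromosome 12 or of the comparison. The comparison bins with at least 5 peaks ran from 8.70 to 107 peaks per 100 genes. On chromosome 6 the mean background was 1.77 ± 0.0921 (SE over 64 peaks) from 20 to 40 Mb and 1.72 ± 0.0353 (SE over 328 peaks) outside. On chromosome 12 the density ran from 19.1 between 10 and 20 Mb to 83.3 from 130 Mb on, where there are 36 genes. Over bins, the rank correlation of density with mean background was 0.12 on chromosome 6 (17 bins) and 0.22 on chromosome 12 (14 bins), with both measures drawn from the same peaks. The density was lower in bins with more genes, with rank correlations of −0.49 and −0.38, where the number of genes is also the denominator of the density.

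Within the histone cluster, 4 of 55 genes had a summit in the gene or within 3 kb, from 3 peaks. H4C4, a histone H4 gene, had a peak of 11-fold whose summit lay 5 bp before its start. H4C11, another histone H4 gene, had 5.79-fold at the lowest background. None of the 21 HLA genes had a peak, which allows a share of up to 14.3% at a floor of 3 counts. Over the genome 21.3% of protein-coding genes had a summit this close. Some histone and HLA genes are close in sequence to others of their family. How reads that match several places were handled is not given in the sources used here, and its part in these counts was not tested.

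At the same background, fold enrichment differed little between the chromosomes over peaks set by the 10 kb or 1 kb window. Its median was higher on chromosomes 6 and 12 at summits covered by 2 or 3 control reads. Over summits with 2 control reads, the median fold enrichment was 6.21 on chromosome 6 (5.89 to 6.54, 80 peaks) and 6.21 on chromosome 12 (5.89 to 6.87, 94 peaks), against 5.56 (5.23 to 5.89, 141 peaks) in the comparison. With 3 control reads it was 5.40 (4.91 to 6.62) and 5.15 (4.91 to 5.64), against 4.42 (4.17 to 5.15), so these intervals met or overlapped. The other classes held few peaks. With 4 or more control reads it was 4.02 (10 peaks) and 4.12 (13 peaks), against 3.43 (2 peaks). At the lowest background it was 7.71 (5.79 to 11.1, 10 peaks) and 7.96 (6.75 to 24.1, 8 peaks), against 7.23 (6.75 to 7.23, 705 peaks). Over peaks set by the 10 kb window it was 7.11 and 7.29, against 7.08, and over those set by the 1 kb window 7.19 (6.45 to 7.79) and 6.79 (6.43 to 7.21), against 6.79 (6.401 to 7.24). The ChIP reads at the summit had a median of 17 on chromosome 6, with quartiles of 15 and 22, and 18 on chromosome 12, with quartiles of 15 and 23. The comparison median was 15, with quartiles of 12 and 18. A higher background requires more reads for the same p-value. The peaks with 4 or more control reads had at least 15 ChIP reads on both chromosomes, and those set by the 10 kb window at least 9. More peaks per gene, more ChIP reads and more control reads thus went together on these chromosomes, and what part each had in the others was not tested.

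Fold enrichment is divided by the background, and at most of the peaks of highest background it was low. A peak in FYN, a Src family tyrosine kinase, had 29 ChIP reads over a background of 6.0, or 4.20-fold. A peak in the noncoding gene LINC00934, near CCDC60, had 23 reads over 6.0, or 3.36-fold. At FKBP5, a co-chaperone of steroid receptors, 18 reads stood over 5.0, which gave 3.11-fold, the lowest value on chromosome 6. Near AQP6, an aquaporin, 35 reads over 4.0 gave 7.06-fold, above the median of chromosome 12. The highest background in the comparison was 4.0. These 4 peaks were chosen for their background.

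The placement of the peaks relative to genes was not used to choose them. On chromosome 6, 159 summits (40.6%, exact interval 35.7 to 45.6) lay within 1 kb of a gene start, and on chromosome 12, 201 (41.8%, 37.3 to 46.3). The share was 40.02% (37.3 to 42.8) in the comparison and 41.9% over all peaks on chromosomes with starts, so no difference from the background was seen. Summits over 3 kb from any gene made up 17.1% on chromosome 6 and 13.1% on chromosome 12, against 18.6%. The raised background was found at promoters and elsewhere. On chromosome 6 the mean was 1.69 ± 0.0475 at promoters and 1.75 ± 0.0452 elsewhere (SE over peaks). On chromosome 12 it was 1.72 ± 0.0379 at promoters and 1.86 ± 0.0430 elsewhere, whereas the comparison had 1.22 and 1.28. The median width of a peak was 215.5 bp on chromosome 6 and 230 bp on chromosome 12, against 210.5 bp.

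The peaks stood closer together on chromosome 12. The median gap between neighbouring summits was 96.9 kb on chromosome 12 and 191 kb on chromosome 6, and ran from 147 to 436 kb on the comparison chromosomes. Gaps under 10 kb made up 11.8% on chromosome 6 and 11.9% on chromosome 12, and 6.67% to 9.29% on the others. On chromosome 12, BICD1, an adaptor of the dynein motor, was the nearest protein-coding gene of 7 peaks and TSPAN9, a tetraspanin, had 6. On chromosome 6, JARID2, a partner of the Polycomb complex, had 7 such peaks, and BACH2, a basic leucine zipper repressor, had 6.

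In all, 343 of the 1024 protein-coding genes of chromosome 12 (33.5%, exact interval 30.6 to 36.5) had a summit in the gene or within 3 kb. On chromosome 6 these were 236 of 1049 (22.5%, 20.003 to 25.1). The share was 18.8% (17.7 to 19.9) in the comparison, beside the 21.3% over the genome. This share is close to the peaks per gene that chose the chromosomes, so it is a description too.

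The strongest peaks had many ChIP reads over backgrounds of at most 2.0. The 10 strongest of chromosome 6 had 35 to 65 reads over backgrounds of 1.04 to 1.46. Those of chromosome 12 had 42 to 100 reads over 1.04 to 2.0. Of the 100 peaks with the highest fold enrichment in the list, 5 lay on chromosome 6 and 9 on chromosome 12. These chromosomes held 392 and 481 of all 6183 peaks, so both counts were near their share of the list. The comparison chromosomes, with 196 to 313 peaks each, held from 0 to 7 of the 100.

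On chromosome 6 the strongest peak was at GCLC, the catalytic subunit of the first enzyme of glutathione synthesis (chr6:53544980-53545306). Its summit had 65 reads (exact Poisson interval 50.2 to 82.8) over a background of 1.40, or 26.9-fold, and lay 31 bp before the start. The next was at EEF1A1, a translation elongation factor (chr6:73520098-73521426), with 56 reads (42.3 to 72.7) and 24.2-fold, 185 bp before the start. The intervals of these 2 peaks overlapped. EEF1A1 has many processed copies in the genome.

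CITED2, a co-activator that binds CBP and p300, had 2 of the strongest peaks. One summit lay 56 bp before its start, with 51 reads and 23.2-fold, and the other 772 bp before it, with 51 reads and 20.7-fold. TEAD3, a transcription factor of the Hippo pathway, had a peak of 17.9-fold inside the gene, 6772 bp after its start. LRRC1, a leucine-rich repeat protein, had 15.2-fold 104 bp before its start. The other 4 lay away from protein-coding genes. A pair of peaks of 19.8-fold and 16.5-fold lay side by side near the pseudogene LOC100420304, between PLEKHG1 and IYD and over 96 kb from either. One of 16.3-fold near LOC124901444 lay 88.5 kb before the start of ARID1B, a subunit of the BAF chromatin remodeler. One of 15.6-fold lay nearest to LOC105377908, 75.9 kb from FHL5.

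Among the strongest peaks of chromosome 12, CAPS2, a calcium-binding protein, had 89 reads (71.5 to 109.5) and 33.9-fold, 55 bp before its start (chr12:75330221-75330535). The peak with the most reads, 100 (81.4 to 121.6), lay 107.8 kb before the start of ATF7IP, by the pseudogene GNAI2P1, over a background of 2.0, or 33.0-fold. A weaker one of 20.6-fold lay 164.9 kb before the ATF7IP start.

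RERG, a small GTPase that restrains growth, had 74 reads and 30.6-fold inside the gene. AGAP2, a GTPase-activating protein of the brain, had 68 reads and 28.9-fold 356 bp before its start. The summit between PXMP2, a peroxisomal membrane protein, and POLE, the catalytic subunit of DNA polymerase epsilon, had 49 reads over the lowest background, or 24.1-fold. BAZ2A, a subunit of the nucleolar remodeling complex, had 50 reads and 21.9-fold 68 bp before its start. The Hedgehog pathway factor GLI1 had a summit inside the gene, with 54 reads and 19.6-fold, which also lay in the noncoding gene LOC124902947.

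**Figure D5:**
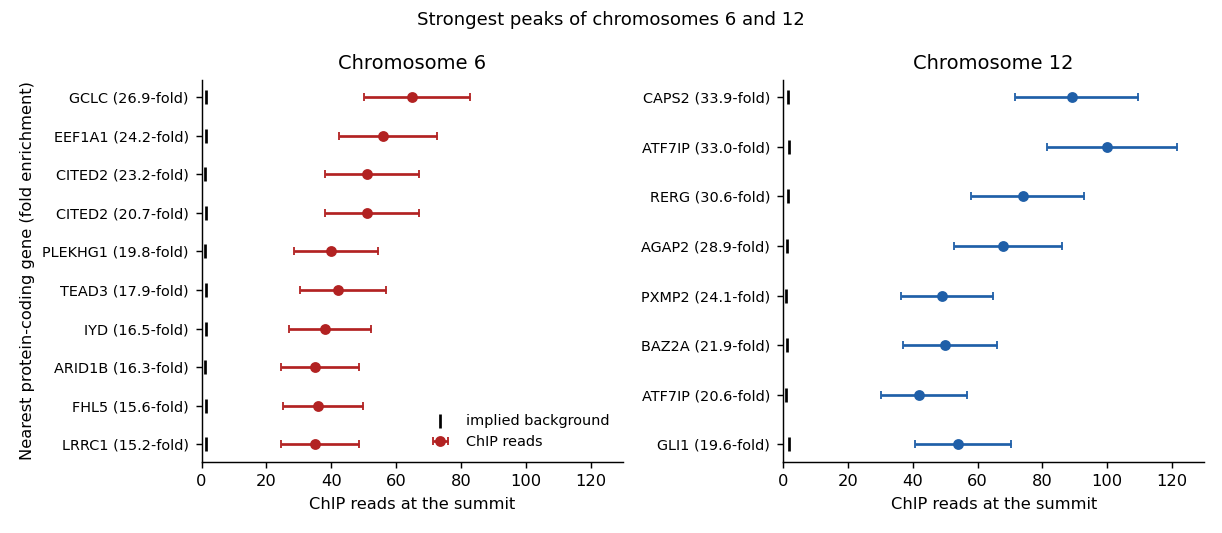
ChIP reads at the summit (points, with 95% Poisson intervals) and the implied background (black ticks) of the strongest peaks of chromosomes 6 and 12 that are named in the text, each labelled by the nearest protein-coding gene with its fold enrichment. The chromosome 6 peaks have 35 to 65 reads and the chromosome 12 peaks 42 to 100, and all ticks lie at or below 2.0.

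The bins of highest mean background, among those with at least 20 peaks, also held strong peaks. On chromosome 12 these were the bins from 110 to 120 Mb, with a mean of 2.02 ± 0.126 (SE over 50 peaks), from 70 to 80 Mb, with 1.89 ± 0.154 (SE over 22 peaks), and from 100 to 110 Mb, with 1.83 ± 0.0952 (SE over 38 peaks). Their strongest peaks were at SPRING1, a regulator of the sterol pathway (17.4-fold), at CAPS2, and at USP30, a mitochondrial deubiquitinase (14-fold, 21 bp before its start). On chromosome 6 they were the bins from 30 to 40 Mb, with 1.88 ± 0.119 (SE over 39 peaks), and from 100 to 110 and 110 to 120 Mb, both with 1.81. Their strongest peaks were at TEAD3, at LOC105377916 between genes (10.2-fold), and in LOC124901379 (15.0-fold), whose nearest protein-coding gene was MARCKS.

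Among genes of neurons and neuroblastoma, 13 of 22 listed on chromosome 6 had a summit in the gene or within 3 kb. Of all protein-coding genes, 22.5% did on chromosome 6 and 21.3% over the genome. The list was made with earlier results known and many of its genes are long, so its share is not a result about its members. The 13 genes had 31 peaks, with a median of 7.21-fold and a median background of 1.61. The transcription factor SOX4 had 18 reads and 9.16-fold, and ID4, an inhibitor of basic helix-loop-helix factors, had 7.23-fold, both at the lowest background. POU3F2, a neural POU factor, had 6.51-fold 64 bp before its start. E2F3, a cell cycle factor, had 2 peaks of up to 7.24-fold, and LIN28B, which blocks let-7 processing, 2 of up to 5.07-fold. FYN had 4 peaks, the highest of 12.9-fold 1 bp before a start. JARID2 had 5 of up to 10.7-fold, BACH2 had 6 of up to 8.66-fold, and DST, a cytoskeletal linker, had 3 of up to 6.54-fold. PHACTR1, a regulator of phosphatase and actin, reached 10.5-fold, MARCKS, an actin-binding substrate of protein kinase C, 10.8-fold, ARID1B 7.32-fold and GRIK2, a kainate receptor subunit, 6.21-fold. TFAP2A, TFAP2B, CASC15, NBAT1, HACE1, PRDM13, NR2E1, HEY2 and MYB had no peak in this range.

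On chromosome 12, 12 of 24 such genes had a peak, with 16 peaks, a median of 8.35-fold and a median background of 1.46. Of all protein-coding genes of chromosome 12, 33.5% had one, and the same limits hold for this list. The neuronal intermediate filament gene PRPH had 10.4-fold. The tubulin genes TUBA1A and TUBA1B, which are close in sequence to each other, had 9.75-fold and up to 8.02-fold. CUX2, a homeobox factor of neurons, had 3 peaks of up to 9.74-fold. NAV3, a neuron navigator, reached 12.4-fold, SYT1, a calcium sensor of synaptic vesicles, 8.53-fold, and NELL2, a secreted neural protein, 7.01-fold. CACNA1C, a calcium channel subunit, reached 12.8-fold, at a summit that lay 115 bp before the start of another gene, DCP1B. HOXC4, HOXC5 and HOXC6 shared 1 peak of 8.66-fold. NEUROD4, SOX5, LHX5, RFX4, TUBA1C, GRIN2B, KCNA1, KCNC2, CNTN1, HOXC8, HOXC9 and HOXC10 had none.

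Among growth and cell cycle genes, 8 of 12 listed on chromosome 6 had a peak, beside 22.5% of all protein-coding genes there. They had 12 peaks, with a median of 6.20-fold and a median background of 1.80. FOXO3, a forkhead factor, had 4 peaks of up to 9.81-fold. The highest, with 39 reads over a background of 3.0, lay outside the gene, 118 bp before the start of LOC124901372. The kinase gene PIM1 had 9.25-fold and the cell cycle inhibitor gene CDKN1A 7.91-fold, with summits 22 and 68 bp before their starts. CCNC, a cyclin of the Mediator complex, had 6.34-fold and its partner kinase CDK19 up to 6.12-fold. The D-type cyclin gene CCND3 had 6.27-fold, the stress kinase gene MAPK14 5.48-fold and the receptor gene IGF2R 4.58-fold. VEGFA, MCM3, ESR1 and TTK had none.

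On chromosome 12, 9 of 16 growth and cell cycle genes had a peak, beside 33.5% of all protein-coding genes there. They had 12 peaks, with a median of 7.78-fold and a median background of 1.61. GLI1 and POLE carried the strong peaks given above. The cyclin-dependent kinase genes CDK2 and CDK4 had 9.98-fold and 7.69-fold, and CDCA3, a mitotic regulator, up to 8.66-fold. These summits lay outside the genes, 203 bp before the start of RAB5B, 54 bp before TSPAN31 and 99 bp before USP5. E2F7, a repressor of the E2F family, had up to 7.88-fold, and MDM2, the ubiquitin ligase of p53, 5.27-fold. CCND2, CDKN1B, HMGA2, FRS2, ERBB3, RAP1B and TBK1 had no peak in this range. All these lists were made with earlier results known, and many of their genes are long. The distance of their shares from those of all genes is therefore not read as a result.

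The 18 peaks at the lowest background were spread over both chromosomes, and 11 of them lay within 1 kb of a start. Of the 705 comparison peaks at this level 306 did, and the share over all peaks on chromosomes with starts was 41.9%. The difference was not tested. On chromosome 6 the 18 peaks included those at SOX4, ID4, JARID2 and H4C11 and the peak of 19.8-fold near LOC100420304. On chromosome 12 they included the peak at PXMP2.

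E-boxes were counted in promoters of 300 bases, from 250 before to 50 after a start, on both strands. CAGATG was also read as CATCTG, and the letters of CAGCTG are the same on both strands, so the motifs cannot match at one position. Of all 34796 promoters, 14.7% held CAGATG, 17.9% held CAGCTG and 29.8% held either. Of the 142 promoters of chromosome 6 with a summit inside, 5.63% held CAGATG (exact interval 2.46 to 10.8) and 24.6% CAGCTG (17.8 to 32.6). Of the 200 of chromosome 12, 12% held CAGATG (7.84 to 17.3) and 21.5% CAGCTG (16.0 to 27.8). On chromosome 6 the interval for CAGATG lay below the share of all promoters, whereas on chromosome 12 it held that share. Over these 342 promoters together, 9.36% held CAGATG (6.49 to 12.95), 22.8% CAGCTG (18.5 to 27.6) and 30.7% either, so the share was lower than in all promoters for CAGATG and higher for CAGCTG. Some summits lay in more than 1 promoter, with 76 pairings beyond the first promoter of each summit, which these intervals do not take into account. The GC content was 67.0% in these 342 promoters and 57.5% in all promoters, and its part in the motif counts was not tested. The 472 promoters of the comparison chromosomes with a summit held CAGATG in 6.99% and CAGCTG in 21.8%, with a GC content of 67.8%. Of the 270 summits of chromosomes 6 and 12 inside a promoter, 89 had one of these motifs in it and 40 had one within 50 bp.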

How the data were processed

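The authors deposited 1 list of NeuroD1 peaks. Per the submitters' processing notes, reads were mapped to hg38 with BWA 0.7.17 and peaks were called with MACS2 2.2.7, whereas the peak names say MACS3. The authors also deposited a score from the q-value, which was not used. The deposited fold enrichment is a ratio of ChIP reads to background at the summit, each with 1 added, and the deposited −log10 p-value and −log10 q-value belong to the summit. The control and the number of reads are not given in the sources used here.

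ChIP reads and background were solved for each peak from the fold enrichment and −log10 p with the Poisson formula of MACS. The weight of 1 ChIP read, 0.980, and the lowest background, 1.04, were inferred from the steps in the list. They gave back the −log10 p within 0.1 percent for 100% of 6183 peaks, against 7.38% with a weight of 1. Backgrounds were matched to the steps of a control window within 0.0005. The solver was tested on simulated data.

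Genes and promoters were those of RefSeq for GRCh38.p14. A peak was assigned to the gene body nearest to its summit. Genes named are those of the 10 strongest peaks of each chromosome, of the strongest peak in the 3 bins of highest background, and members of gene lists. Genes of highest background, with many peaks or at the lowest background, and those shown for an E-box were named after their values were seen, and listed genes without a peak are also named. The results for some genes that these rules select are not reported here. Members and lists were chosen with earlier results of these data known. Intervals are exact Poisson or Clopper-Pearson intervals at 95%, and those of medians come from ranks. The alternatives were other thresholds, units of gene density, bins and gene rules. Scripts ran in Python 3.11.15 with scipy 1.17.1, pandas 2.3.3 and numpy 2.4.6, and figures were drawn with matplotlib 3.10.9.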

Additional observations from a re-analysis of the deposited data

How the results depend on the processing

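Of 38 alternatives, 22 left the value within its limits and 16 moved it. The limits were the 95% interval of the value, or a factor of 1.5 for numbers of genes. For the strongest peaks all 10 had to be kept. Not every alternative was also run on the comparison chromosomes. The ratio of peaks per gene of chromosome 6 to the comparison was 1.78 without its bins from 20 to 40 Mb. This alternative was chosen after seeing the data, and no bins of the comparison were left out. The ratio of chromosome 12 to the comparison was 2.38 per megabase. Restricting to a −log10 q of 5 or more gave median fold enrichments of 7.30 (chromosome 6) and 7.19 (chromosome 12). The mean fold enrichments over all peaks were 7.49 and 7.71, against 7.72 in the comparison. The mean background was 1.62 and 1.71 above a 5-fold limit, against 1.19 in the comparison. With a weight of 1 for a ChIP read it was 1.45 and 1.54. The median backgrounds were 1.53 and 1.61, against 1.04. Peaks above 1.5 times the lowest background made up 48.7% and 54.9%, against 15.8% in the comparison. Within 3 kb of a start lay 46.2% of chromosome 6 peaks, against 44.3% in the comparison. Ranked by −log10 q, 8 of its 10 strongest peaks were kept. No paired analysis was possible because there was 1 ChIP library, and no replicate could be left out.

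With 1 library, the spread between cultures is unknown. The background was inferred and rests on few control reads at each summit, so single peaks are uncertain while means over bins are less so.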
